A study of Homo sapiens with 2 samples.

Results

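The genes described here are ROR1 and 9 other genes of non-canonical WNT signalling (ROR2, DAAM1, WNT5A, WNT5B, FZD2, FZD6, RYK, VANGL1 and PRICKLE1), taken by name from the gene column of the array files. They were measured with 16 of 41000 probes, and 12 of these probes, which stand for 8 of 19218 genes, were kept after a filter on dim spots. The set was selected on the array ratios themselves, because ROR1 and DAAM1 changed, so the ratios are given as a description without a test. The RNA came from PC3, an established prostate cancer cell line, transfected 2 times with 1 of 2 siRNA duplexes against SUB1, which encodes a transcriptional coactivator, or with Non-T (non-targeting) siRNA. RNA was isolated at 72 h, counted from the first of these transfections. On 1 dual-colour Agilent whole genome array, SUB1 siRNA 1 (Cy5) was set against Non-T siRNA (Cy3), and on a second array, SUB1 siRNA 2 (Cy5) was set against Non-T siRNA (Cy3). All groups were transfected cells of the same line, and an untransfected culture was not part of this comparison. With 1 array per siRNA and no dye swap, no ratio had a replicate, and dye bias and knockdown cannot be told apart for any probe. Values are log2 ratios of the knockdown channel (Cy5) over the control channel (Cy3) unless raw signals are named, and a gene was called changed at an absolute log2 ratio of at least 1, which is a 2-fold change.

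Non-canonical WNT signalling runs without beta-catenin. WNT5A and WNT5B are secreted ligands that bind frizzled receptors such as FZD2 and FZD6 together with the co-receptors ROR1, ROR2 and RYK. The signal passes through dishevelled to the formin DAAM1, which links dishevelled to the actin cytoskeleton, or to calcium-dependent kinases. VANGL1 and PRICKLE1 are planar cell polarity proteins of the same signalling, which is known for roles in cell polarity and migration.

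Promoter sequences of ROR1 and DAAM1 are shown because these were the members that passed 2-fold. Each run is 300 bases of the RefSeq sequence (GRCh38.p14), from 250 bases before to 50 after the annotated start site, at chr1:63773767-63774066 on the plus strand for ROR1 and at chr14:59188417-59188716 on the plus strand for the first of 2 listed DAAM1 start sites. Capitals mark every match, on either strand, to 6 motifs, the GC box GGGCGG, the CCAAT box CCAAT, the TATA box TATAAA, the AP-1 site TGANTCA, the TCF/LEF site CTTTGAT and the E2F site TTTNGCGC. The letters of no motif lie within those of another.
ROR1: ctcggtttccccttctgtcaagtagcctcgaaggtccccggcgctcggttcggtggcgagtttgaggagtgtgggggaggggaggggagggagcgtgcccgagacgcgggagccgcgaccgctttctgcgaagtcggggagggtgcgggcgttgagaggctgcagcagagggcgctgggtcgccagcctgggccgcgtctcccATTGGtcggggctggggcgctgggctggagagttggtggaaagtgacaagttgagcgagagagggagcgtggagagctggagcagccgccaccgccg
DAAM1: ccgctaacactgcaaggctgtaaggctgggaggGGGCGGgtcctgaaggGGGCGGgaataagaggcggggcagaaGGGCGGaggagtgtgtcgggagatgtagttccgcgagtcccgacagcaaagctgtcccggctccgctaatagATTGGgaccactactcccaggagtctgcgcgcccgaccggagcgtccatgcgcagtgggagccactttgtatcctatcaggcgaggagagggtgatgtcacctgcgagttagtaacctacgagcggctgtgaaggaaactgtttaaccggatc
In the ROR1 promoter, 1 CCAAT box was found on the reverse strand, where it reads ATTGG, and no match to the other motifs. The DAAM1 promoter held 3 GC boxes and 1 CCAAT box. Of 35116 promoters of the same length, 45.0% held a GC box, 34.6% a CCAAT box, 11.5% a TATA box, 7.71% an AP-1 site, 2.62% a TCF/LEF site and 1.79% an E2F site. The ROR1 promoter held 29 CpG and was 69.0% G or C, and the DAAM1 promoter held 22 CpG and was 60.7% G or C, against a median of 14 CpG over all promoters. The window at the second DAAM1 start site held 5 CpG and none of the motifs. Promoters were listed for 8 of the 10 members.

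The targeted gene was checked first. By its brightest probe, the ratio was -3.30 with siRNA 1 (10.2% of the signal left) and -3.26 with siRNA 2 (10.4% left). The other SUB1 probes had -3.75, -3.35 and -1.81 with siRNA 1, and -3.50, -3.16 and -1.57 with siRNA 2. Of all 19218 genes, 0.208% passed 2-fold upwards and 0.609% downwards with siRNA 1, and 0.614% passed upwards and 1.07% downwards with siRNA 2. The median ratio of all genes was 0.02 with both siRNAs. Epithelial markers (KRT8, KRT18, KRT19, EPCAM) were well above background in Cy3 with all 8 probes. Of 13 probes for 9 markers of other cell types, 3 were above background in Cy3 on both arrays, those of CD3E, COL1A1 and PECAM1, and raw Cy3 signals of the 13 lay between 72.7 and 164, with both probes of the leukocyte gene PTPRC at background. The prostate gene KLK3 had 1 probe with a raw Cy3 signal of 18634 on the first array, whereas its other probes had 105 and 87.2. All 10 interferon-stimulated markers had ratios above 0 with siRNA 2 (median 0.83, 4 of them at least 2-fold higher), whereas their median was -0.02 with siRNA 1, and the part of this in the siRNA 2 ratios below was not tested.

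With SUB1 siRNA 1, the WNT co-receptor ROR1 was 3.83-fold and the formin DAAM1 2.39-fold higher than in Non-T siRNA-treated cells, and the other 6 kept members lay between -0.38 and -0.05 (log2). With siRNA 2, ROR1 had a ratio of -0.31 and DAAM1 of 0.55, and no kept member reached 2-fold in either direction. Thus 2 of 8 kept members were called higher with siRNA 1, where 0.208% of all genes were, and 0 of 8 with siRNA 2, where 0.614% were. These counts were fixed in part by how the members were chosen. Just inside the 2-fold limit was DAAM1 at 1.26 with siRNA 1, and just outside it was FZD6 at 0.64 with siRNA 2. The error of a single spot was taken from probes spotted 10 times, whose log2 ratios had a median SD among spots of 0.07 to 0.10 at the brightness of the kept members. This SD covers error within an array and not differences between cultures.

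**Figure D1:**
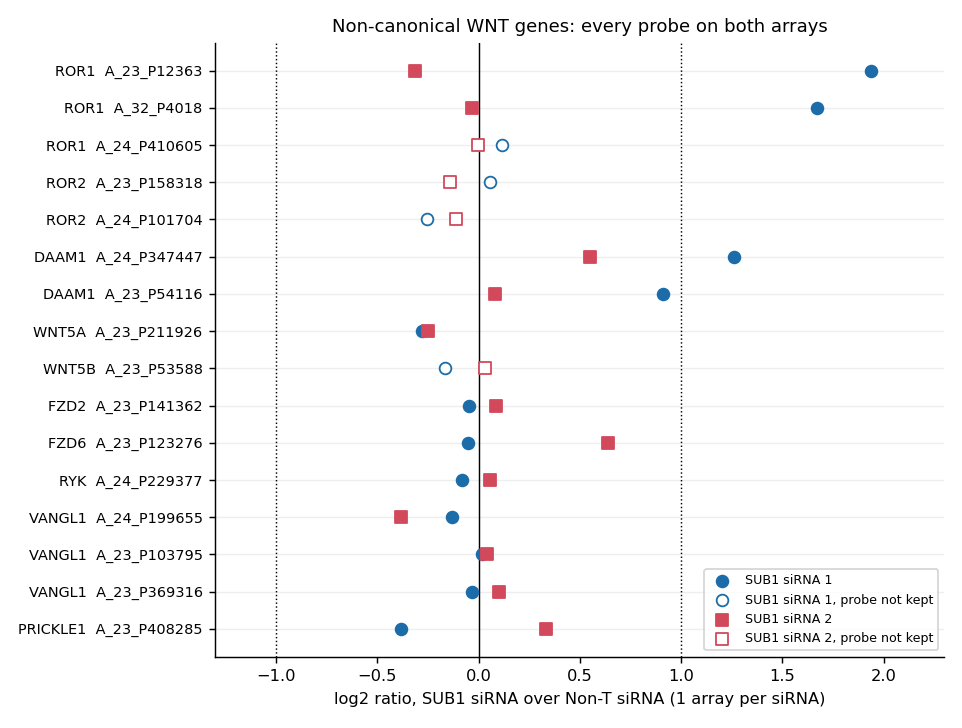
Log2 ratio of Cy5 (SUB1 siRNA) over Cy3 (Non-T siRNA), on the x axis, for all 16 probes (y axis), with siRNA 1 as circles, siRNA 2 as squares and open symbols for the 4 probes that were not kept. Dotted lines mark 2-fold. Both bright ROR1 probes and 1 DAAM1 probe lie beyond it with siRNA 1, and no probe does with siRNA 2.

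Of the ligands, WNT5A was detected and WNT5B was not. The WNT5A probe (chr3:55476693-55476752 in hg18, the build named in the array files) had a raw signal of 223 with Non-T siRNA and 195 with SUB1 siRNA 1 on the first array, and of 199 with Non-T siRNA and 175 with SUB1 siRNA 2 on the second. Both siRNAs gave a negative ratio, -0.28 (a 1.21-fold decrease) and -0.25 (1.19-fold), which was the most similar pair of ratios among the kept members. Both ratios exceeded the spot SD of 0.09 at this brightness. WNT5A had 1 probe, and this SD covers neither dye bias nor differences between cultures. The WNT5B probe (chr12:1626062-1626121) was not well above background in any channel, with raw signals of 96.8 and 64.9 on the first array and 79.9 and 61.2 on the second, and no direction is given for this gene. The median negative control spot had 86.5 in Cy3 and 63.2 in Cy5 on the first array and 78.6 and 61.2 on the second.

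Among the receptors, ROR1, a receptor tyrosine kinase-like co-receptor for WNT5A, was measured with 3 probes. Probe A_23_P12363 (chr1:64417128-64417187) had a raw signal of 197 with Non-T siRNA and 784 with SUB1 siRNA 1 on the first array, and of 194 with Non-T siRNA and 164 with SUB1 siRNA 2 on the second. Probe A_32_P4018, which begins 2252 bases further along (chr1:64419380-64419439), had 172 with Non-T siRNA and 538 with SUB1 siRNA 1, and 156 with Non-T siRNA and 143 with SUB1 siRNA 2. With both probes the siRNA 1 signal stood apart from the other 3, which lay close together. The first probe had a ratio of 1.94 with siRNA 1 and -0.31 with siRNA 2, and the second had 1.67 and -0.03. Over both, the mean was 1.80 ± 0.19 (SD between 2 probes) with siRNA 1 and -0.17 ± 0.20 with siRNA 2. The third probe, A_24_P410605, begins 36222 bases before the first (chr1:64380906-64380965) and carries the accession of a separate cDNA. Its raw signals were 98.7 with Non-T siRNA and 87.7 with SUB1 siRNA 1, and 90.8 with Non-T siRNA and 74.8 with SUB1 siRNA 2. It was well above background only in Cy5 on the first array, where the siRNA 1 signal was at least 1.07-fold the higher of the Cy3 signal and the Cy3 detection floor, and it was not kept. The bound takes the lowest Cy3 signal among probes well above background as that floor and is open to dye bias. Whether a probe lies in a coding exon or an untranslated part was not annotated here, since no annotation of hg18 was used.

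ROR1 had the second highest ratio of all 19218 genes with siRNA 1 (rank 2), and rank 16720 from the highest with siRNA 2. It also held rank 2 for the siRNA 1 ratio minus the siRNA 2 ratio, a difference of 2.25. The normalised Cy5 signal of its brighter probe was lower by 2.02 (log2) with siRNA 2 than with siRNA 1, where genes of like brightness had an SD of 0.33. Its Cy3 signal, from Non-T siRNA-treated cells on both arrays, was higher by 0.23 on the second array, where the SD for genes of like brightness was 0.10. Most of the difference in ratio was therefore in the knockdown channel. For A_32_P4018 the Cy5 signal was lower by 1.70 with siRNA 2, and the Cy3 signals differed by under 0.01. Spots of the 2 probes lay at row 141, column 47 and at row 104, column 24 of the array. Among genes with a second kept probe, 15 were at least 2-fold higher with siRNA 1 by their brightest probe, and the second probe was also at least 2-fold higher in 6 of these and above 0 in 14. ROR1 was 1 of the 6. Because ROR1 was selected for its change on these arrays, its ranks, differences and second probe are description and not support.

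ROR2, the paralogue of ROR1, was not well above background in any channel of either array with either of its probes (chr9:93525288-93525347 and chr9:93526553-93526612). Their raw signals were 94.1 and 101 in Cy3 and 78.2 and 66.0 in Cy5 on the first array, and 96.0 and 84.3 in Cy3 and 72.2 and 66.9 in Cy5 on the second. No direction is given for ROR2. RYK, a WNT receptor with an inactive kinase domain (chr3:135377146-135377205), had raw signals of 196 with Non-T siRNA and 186 with SUB1 siRNA 1, and of 184 with Non-T siRNA and 201 with SUB1 siRNA 2. Its ratios of -0.08 with siRNA 1, which turned to 0.01 under median centring in place of loess, and 0.06 with siRNA 2 were within the spot SD of 0.09.

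The frizzled receptors gave different pictures with siRNA 2. FZD2 (chr17:39992136-39992195) had raw signals of 835 with Non-T siRNA and 965 with SUB1 siRNA 1, and of 627 with Non-T siRNA and 781 with SUB1 siRNA 2. After normalisation its ratio was -0.05 with siRNA 1, which turned to 0.17 under median centring, 0.10 with the scanner software's processed signals and 0.0098 in the authors' log2 ratios, and 0.09 with siRNA 2. FZD6 had raw signals of 292 with Non-T siRNA and 302 with SUB1 siRNA 1, and of 242 with Non-T siRNA and 409.9 with SUB1 siRNA 2. Only the siRNA 2 signal stood apart. The FZD6 ratio was -0.05 with siRNA 1, which turned to 0.09 under median centring and 0.07 with the software's processed signals, and 0.64 with siRNA 2, a 1.56-fold increase. With siRNA 2 it held rank 525 of 19218 from the highest.

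**Figure D2:**
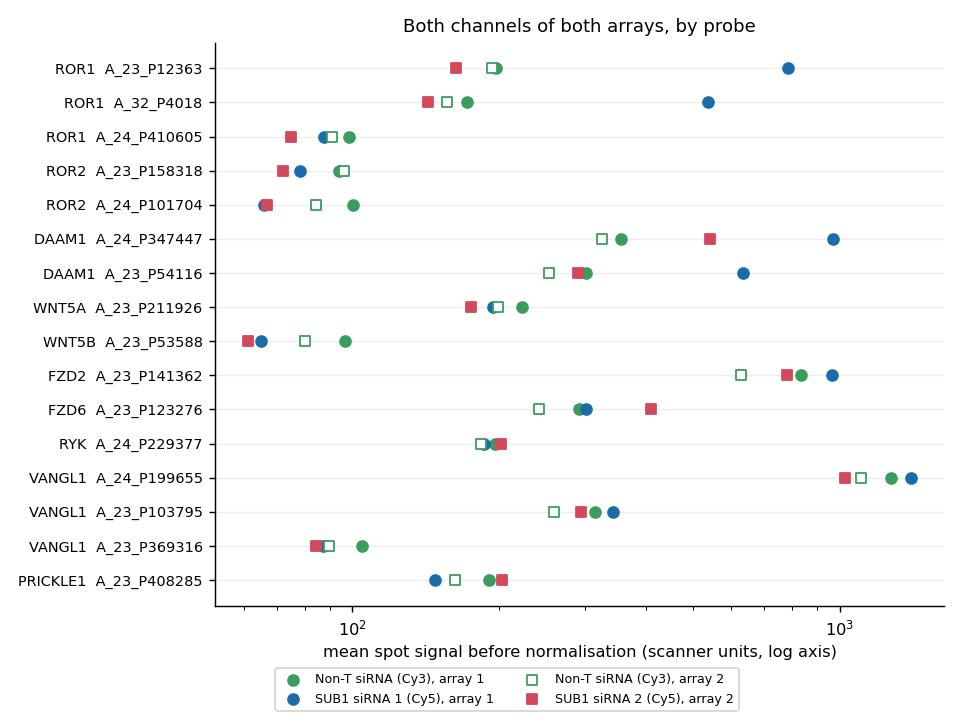
Mean spot signal before normalisation, in scanner units on a log axis, for each probe, with the Cy3 (Non-T siRNA) and Cy5 (SUB1 siRNA) channels of both arrays. Signals are compared within a row and not between probes. For the first 2 ROR1 probes the siRNA 1 signals of 784 and 538 lie apart from the other 3 values of the row.

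Among the polarity and effector proteins, DAAM1 was measured with 2 probes that begin 636 bases apart. Probe A_24_P347447 (chr14:58905983-58906042) had raw signals of 356 with Non-T siRNA and 970.0 with SUB1 siRNA 1 on the first array, and of 326 with Non-T siRNA and 542 with SUB1 siRNA 2 on the second. Probe A_23_P54116 (chr14:58905347-58905406) had 302 with Non-T siRNA and 633 with SUB1 siRNA 1, and 254 with Non-T siRNA and 290.4 with SUB1 siRNA 2. With both probes the siRNA 1 signal was the highest of the 4, and with the brighter probe the siRNA 2 signal was second. The brighter probe had a ratio of 1.26 with siRNA 1 and 0.55 with siRNA 2, and the other had 0.91 and 0.08, so that only 1 of the probes passed 2-fold with siRNA 1. Over both probes the mean was 1.08 ± 0.25 (SD between 2 probes) with siRNA 1 and 0.31 ± 0.33 with siRNA 2. DAAM1, also selected for its change, held rank 17 of 19218 with siRNA 1 and rank 808 with siRNA 2, given as description. Its probes differed by 0.35 with siRNA 1 and by 0.47 with siRNA 2, against a median difference of 0.17 and 0.18 between the 2 brightest probes of 4896 genes. The siRNA 1 ratio exceeded the siRNA 2 ratio by 0.71 with the brighter probe and by 0.83 with the other.

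VANGL1, a transmembrane protein of the planar cell polarity complex, had 3 probes. The brightest, A_24_P199655 (chr1:116035442-116035501), had raw signals of 1276 with Non-T siRNA and 1404 with SUB1 siRNA 1, and of 1107 with Non-T siRNA and 1024 with SUB1 siRNA 2. Its ratio was -0.13 with siRNA 1, which turned to 0.09 under median centring, and -0.38 with siRNA 2. Probe A_23_P103795 (chr1:116037455-116037514) had ratios of 0.02 and 0.04, within the spot SD of 0.08. Probe A_23_P369316 (chr1:116035696-116035755) was well above background only in Cy5, and its raw signals of 87.1 and 84.1 there gave no fold above 1 on the first array and a bound of at least 1.01-fold on the second. The lower VANGL1 value with siRNA 2 thus rested on 1 probe. PRICKLE1, its cytoplasmic partner (chr12:41139477-41139536), had raw signals of 191 with Non-T siRNA and 148 with SUB1 siRNA 1, and of 162 with Non-T siRNA and 203 with SUB1 siRNA 2. Its ratio was -0.38 with siRNA 1, a 1.31-fold decrease, and 0.33 with siRNA 2, a 1.26-fold increase, each larger than the spot SD of 0.10 and 0.09. The Cy3 signals of PRICKLE1 on the 2 arrays differed by 0.04 (log2) and the Cy5 signals by 0.68.

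Between the siRNAs, ROR1 and DAAM1 were higher with siRNA 1 than with siRNA 2, FZD6 and PRICKLE1 were higher with siRNA 2 by 0.69 and 0.72, and WNT5A differed by 0.03. With 1 array per siRNA the difference itself has no test. Both ratios were taken over Non-T siRNA-treated cells, and whether the arrays carried the same Non-T extract is not stated, so likeness between the arrays is not independent evidence. In bulk RNA, fewer cells that express a gene and less RNA per cell cannot be told apart.

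**Figure D3:**
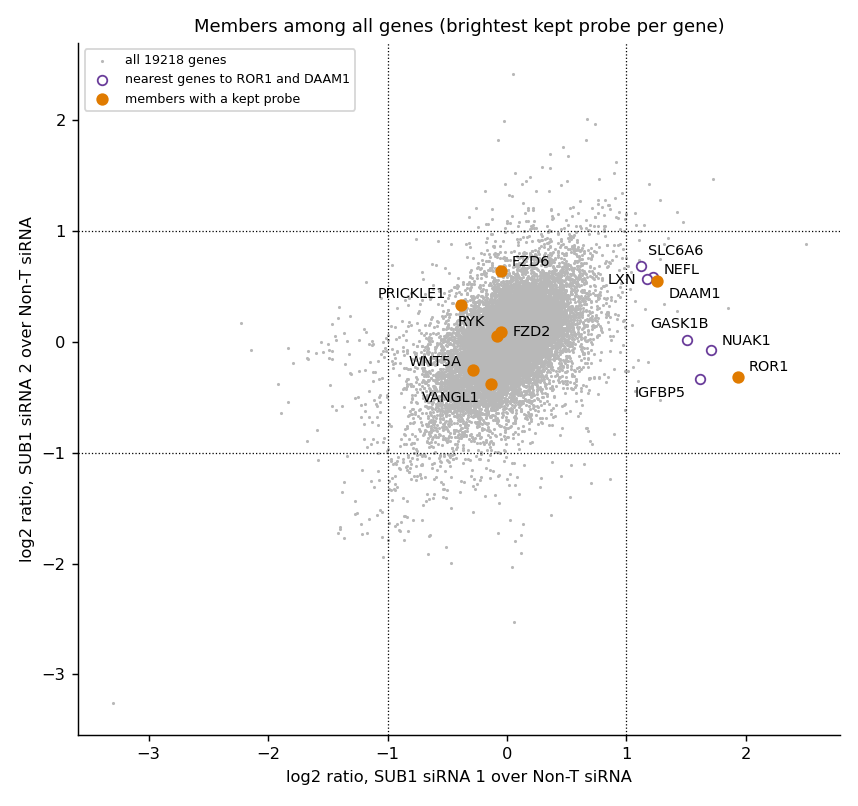
Log2 ratio with siRNA 1 (x axis) and siRNA 2 (y axis) of all 19218 genes (grey), the 8 kept members (filled) and the 6 genes whose ratio pairs were nearest to those of ROR1 and DAAM1 (open). Dotted lines mark 2-fold. ROR1 lies at 1.94 and -0.31 and DAAM1 at 1.26 and 0.55, beyond 2-fold on the x axis alone.

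The genes with the pair of ratios nearest to that of ROR1, by distance in log2 units over both arrays, were IGFBP5, NUAK1 and GASK1B. IGFBP5, a secreted binding protein of insulin-like growth factors, had 1.62 with siRNA 1 and -0.33 with siRNA 2, at a distance of 0.32. NUAK1, a kinase of the AMPK family, had 1.71 and -0.07 (distance 0.33), the latter turning to 0.15 under median centring. GASK1B, a Golgi-associated protein, had 1.51 and 0.02 (distance 0.54), the latter turning to -0.03 in the authors' log2 ratios. Nearest to DAAM1 were the neurofilament gene NEFL (1.22 and 0.58), the carboxypeptidase inhibitor LXN (1.18 and 0.57) and the taurine transporter SLC6A6 (1.12 and 0.68), at distances of 0.05, 0.09 and 0.20. The second NEFL probe had 1.04 and 0.32. Of the other SLC6A6 probes, A_24_P359191 had 0.02 and -0.20, so the SLC6A6 pair rested on 1 probe. NUAK1, GASK1B and LXN were measured with only 1 probe each.

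Beyond the members, 143 other genes were taken from 9 lists, of which 109 had a kept probe. The lists hold WNT genes and genes linked to WNT signalling or to ROR1. With siRNA 1, 62 of the 109 had ratios above 0 and 47 below, with a median of 0.06, and with siRNA 2, 49 were above and 60 below, with a median of -0.06, against 0.02 for all genes. The siRNA 2 median turned to 0.03 under median centring and 0.08 with the software's processed signals, where the median of all genes had itself moved up to 0.12 and 0.17. With siRNA 1, 2 of 109 (1.83%) were at least 2-fold higher and 0 were lower, where 0.208% and 0.609% of all genes were. The 2 were IGFBP5, listed as a ROR1 partner and not a WNT gene, and PRKCA, listed in the WNT calcium arm. With siRNA 2, 0 of 109 passed 2-fold in either direction, where 0.614% of all genes were higher and 1.07% lower. The lists were fixed with earlier results of these data known, so these shares describe the lists and are not an independent test. The mean of both siRNAs was tested against 0 with limma, adjusted over all genes by Benjamini-Hochberg. This test takes the 2 duplexes, with 1 array each, as replicates and leaves out the spread of the control. A dye bias shared by both arrays would count in it as a change. By limma, 0 of the 109 genes had an adjusted p under 0.05 (lowest 0.112). An unadjusted p under 0.05 was found for 25, 9 with a positive and 16 with a negative mean. Over all genes, 0.0052% passed the adjusted threshold, which was SUB1 alone with an adjusted p of 0.0248, and 20.9% had an unadjusted p under 0.05, 2109 genes with a positive and 1904 with a negative mean.

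The 3 IGFBP5 probes had 1.62, 1.29 and 0.85 with siRNA 1 and -0.33, -1.04 and -0.53 with siRNA 2. All were above 0 with siRNA 1 and below 0 with siRNA 2, and 2 of the 3 passed 2-fold with siRNA 1. The probe at -1.04 was more than 2-fold lower with siRNA 2, but the brightest probe, which stands for the gene, was not. The siRNA 2 value of the brightest probe moved to -0.08 in the authors' log2 ratios, -0.12 under median centring and -0.16 with the software's processed signals, and the mean over the 3 probes was -0.64. Raw signals of the brightest IGFBP5 probe were 918 with Non-T siRNA and 3385 with SUB1 siRNA 1, and 771 with Non-T siRNA and 728 with SUB1 siRNA 2, so that, as with ROR1, the siRNA 1 signal stood apart from the other 3. PRKCA, a calcium-dependent protein kinase C, had 1.08 with siRNA 1 and -0.44 with siRNA 2 by its brightest probe. Its second probe was well above background only in Cy5 on both arrays and gave no fold above 1, so the PRKCA value rested on 1 probe.

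None of the remaining 107 genes passed 2-fold, and the 2 with the largest mean ratio are given for 8 of the 9 lists. Of 17 other WNT ligands, 8 were kept, with medians of -0.06 with siRNA 1 and -0.12 with siRNA 2. WNT7A had -0.56 and -0.69 (adjusted p = 0.113, limma) and WNT10B -0.26 and -0.22 (adjusted p = 0.253, limma). Of 15 other frizzled and WNT receptors, 13 were kept, with medians of 0.05 and -0.01. FZD8 had -0.38 and -0.61 (adjusted p = 0.138, limma), and MCAM, an adhesion molecule that binds WNT5A, had -0.70 and -0.41 (adjusted p = 0.136, limma). All 11 genes listed as ROR1 partners were kept, with medians of -0.05 and -0.08. Besides IGFBP5, the caveolar protein CAV1 had -0.43 and -0.62 (adjusted p = 0.131, limma). These genes were named for the size of their mean ratio. Over each whole list, 3 of the 8 ligands, 7 of the 13 receptors and 5 of the 11 ROR1 partners were above 0 with siRNA 1, and 3, 6 and 5 with siRNA 2.

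For other planar cell polarity proteins, 13 of 16 were kept, with medians of 0.10 with siRNA 1 and 0.03 with siRNA 2. The atypical cadherin CELSR3 had 0.10 and 0.72 (adjusted p = 0.273, limma), and the dishevelled gene DVL2 0.24 and 0.40 (adjusted p = 0.194, limma). Of 14 formins and profilins other than DAAM1, 12 were kept, with medians of 0.16 and -0.12. The formins DIAPH1 and DIAPH3 had -0.44 and -0.60, and -0.43 and -0.50 (adjusted p = 0.130 and 0.134, limma), in the other direction from DAAM1. Both DIAPH1 probes and all 4 DIAPH3 probes had ratios below 0 with both siRNAs, but DIAPH3 probe A_23_P419254 was well above background only in Cy3 on the second array. These genes were named for the size of their mean ratio. Over each whole list, 9 of the 13 polarity genes and 7 of the 12 formins and profilins were above 0 with siRNA 1, and 8 and 4 with siRNA 2.

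In the WNT calcium arm, 16 of 19 genes were kept, with medians of 0.07 with siRNA 1 and -0.14 with siRNA 2. Besides PRKCA, which had a mean of 0.32 over both siRNAs, the calcineurin subunit PPP3R1 had 0.57 and 0.39 (adjusted p = 0.137, limma) and the kinase NLK -0.37 and -0.71 (adjusted p = 0.142, limma). Of 22 genes of WNT secretion and extracellular modulation, 11 were kept, with medians of 0.10 and 0.06. WLS, which carries WNT proteins to the cell surface, had 0.48 and 0.75 (adjusted p = 0.123, limma), and the secreted antagonist DKK1 0.36 and 0.72 (adjusted p = 0.147, limma). In the beta-catenin arm, 13 of 16 genes were kept, with medians of -0.03 and -0.14. The transcription factor TCF7 had -0.62 and -0.70 (adjusted p = 0.112, limma), the lowest adjusted p of the 109 genes, and the kinase GSK3A had -0.44 and -0.33 (adjusted p = 0.153, limma).

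**Figure D4:**
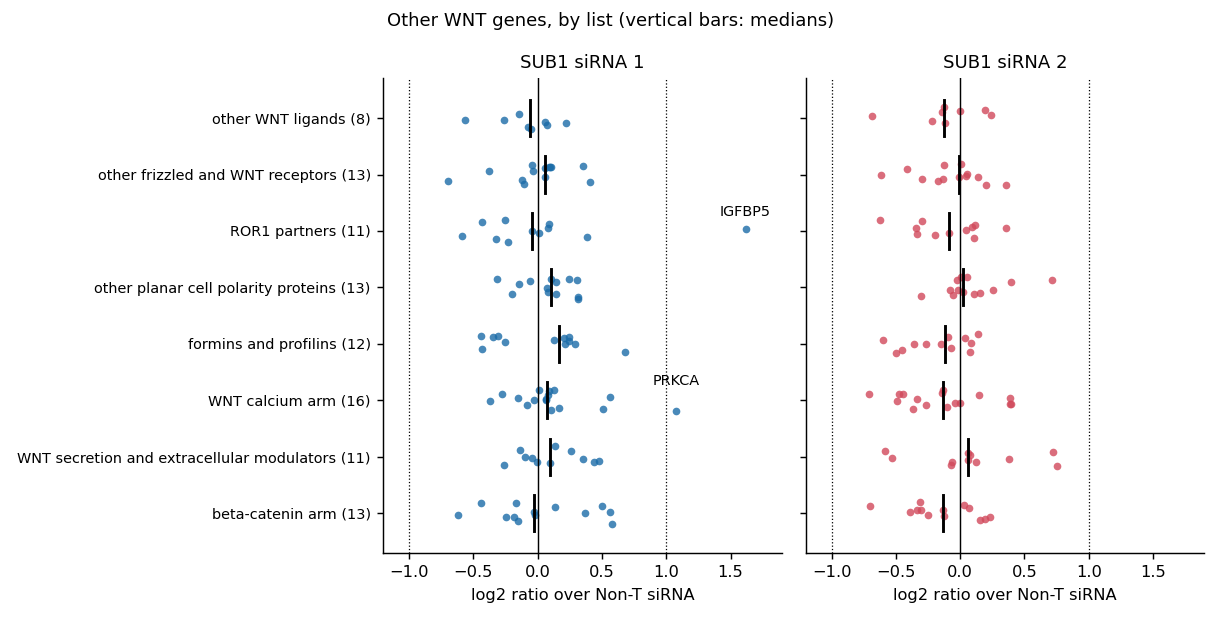
Log2 ratios over Non-T siRNA of the 97 kept genes of 8 WNT lists (rows, with the number kept), with siRNA 1 on the left and siRNA 2 on the right. Points are genes, vertical bars are medians and dotted lines mark 2-fold. IGFBP5 and PRKCA lie beyond it with siRNA 1, and no gene does with siRNA 2.

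The values of ROR1 and DAAM1 were recomputed under 7 other ways of correcting and normalising the arrays. With siRNA 1, A_23_P12363 of ROR1 ranged from 1.85 to 2.57 and A_32_P4018 from 1.53 to 2.46. With siRNA 2 they ranged from -0.37 to -0.21 and from -0.20 to 0.04. A_24_P347447 of DAAM1 spanned 1.19 to 1.56 with siRNA 1 and 0.55 to 0.80 with siRNA 2. A_23_P54116 spanned 0.83 to 1.28 with siRNA 1, passing 2-fold under median centring and with the software's processed signals, and -0.02 to 0.30 with siRNA 2.

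**Figure D5:**
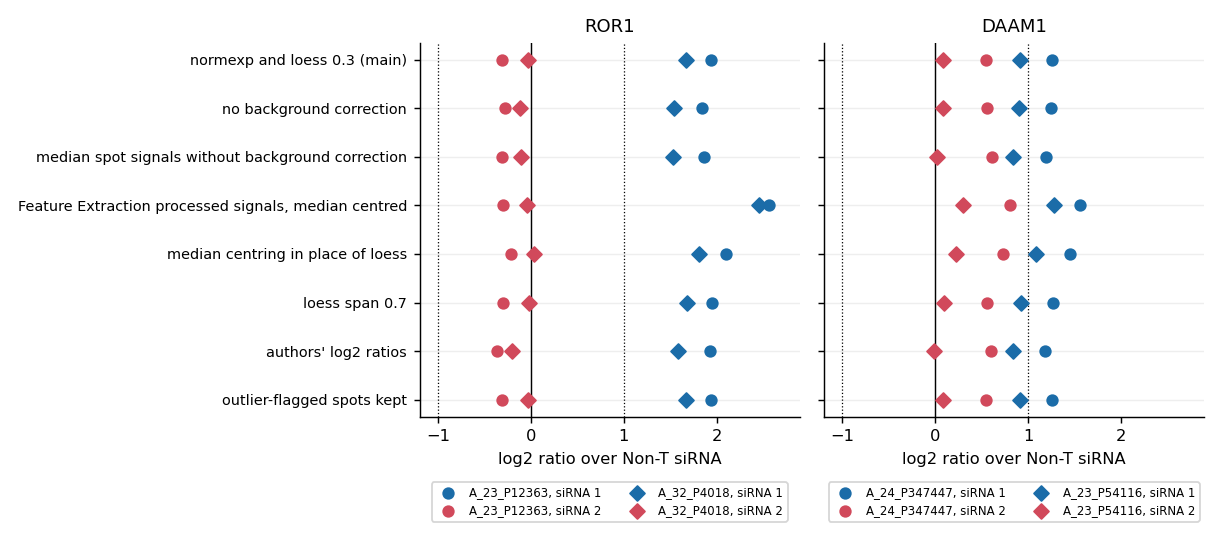
Log2 ratio over Non-T siRNA (x axis) of both kept probes of ROR1 (left) and DAAM1 (right) under the normalisation used and 7 alternatives (y axis), with siRNA 1 in blue and siRNA 2 in red. The ROR1 siRNA 1 values stay above 1.5 throughout, and the second DAAM1 probe lies on either side of 2-fold, the dotted line.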

How the data were processed

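Both arrays of RNA from PC3 cells were analysed. The authors scanned them with Agilent Feature Extraction 9.5.1.1 and deposited the intensity and local background of every spot in both channels before normalisation, and the software's processed intensity. They also deposited a table of log2 ratios normalised by loess within each array, used here as an alternative. Mean spot signals were background-corrected with normexp at an offset of 50, and loess with a span of 0.3 was run on each array (R 4.3.3, limma 3.58.1). Spots flagged as outliers were dropped (112 and 100 on the 2 arrays). A probe stayed in if, on both arrays, 0.5 or more of its spots were called well above background by the software in Cy3 or in Cy5 (25673 probes), and each gene took its brightest probe, of 4896 genes with more than 1. Of the 19218 genes, 13129 took their name from a RefSeq table and 6089 from the array files. A change of at least 2-fold (absolute log2 ratio of 1) on an array was the rule for a call, as in the methods. The mean of both siRNAs was tested with limma (intercept, eBayes, Benjamini-Hochberg) for genes that were not members.

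In Cy3, 54.3% of gene spots were well above background on both arrays, and in Cy5, 67.2% and 64.5%. Precision is limited by the number of arrays. The members and lists were chosen with earlier results of these data known. Genes outside the members were named by rule, as those past 2-fold, the 2 with the largest absolute mean ratio in each list, and the 3 nearest to ROR1 and to DAAM1; markers and SUB1 were added as checks. The fit was tested on simulated data. A marker gene and 1 list of WNT effectors are not reported here. The software's own log10 ratios and p-values were not used.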

Additional observations from a re-analysis of the deposited data

Results flagged for a closer look

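For 5 members the ratio had opposite signs with the 2 siRNAs, each measured on 1 array, and the difference was not tested. ROR1 had 1.94 with siRNA 1 and -0.31 with siRNA 2. PRICKLE1 had -0.38 with siRNA 1 and 0.33 with siRNA 2. FZD6 had -0.050 and 0.64, FZD2 had -0.047 and 0.088, and RYK had -0.082 and 0.058. The spot SD at their brightness was 0.07 to 0.10, so both ratios exceeded it for PRICKLE1 and for the brighter ROR1 probe, 1 of the 2 did for FZD6 and FZD2, and neither did for RYK. The other ROR1 probe had -0.03 with siRNA 2, which turned to 0.04 under median centring. With the software's processed signals RYK had -0.19 with siRNA 1 and 0.19 with siRNA 2. The opposite signs of FZD6 and FZD2 were lost under median centring and with the software's processed signals, where both had ratios above 0 with siRNA 1. Those of FZD2 were also lost in the authors' log2 ratios, and those of RYK under median centring.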

How the results depend on the processing

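Each ratio already sets SUB1 siRNA against Non-T siRNA on the same array, and no further pairing was possible because each siRNA has 1 array. Leaving out an array leaves no residual degrees of freedom. The count of members at least 2-fold changed stayed at 2 with siRNA 1 and 0 with siRNA 2 under 10 alternatives, and among the members, IGFBP5 and PRKCA no value past 2-fold changed sign. With the software's processed signals, ROR1 had 2.57 with siRNA 1, and DAAM1 1.56 with siRNA 1 and 0.80 with siRNA 2. FZD2 had 0.10 and 0.27, FZD6 0.074 and 0.97, VANGL1 -0.0068 and -0.24, PRICKLE1 -0.67 and 0.46, and RYK 0.19 with siRNA 2. There the median of all genes was 0.14 with siRNA 1 and 0.17 with siRNA 2, 983 genes passed 2-fold upwards and 214 downwards with siRNA 1 (40 and 117 in the report), and 1248 and 345 did so with siRNA 2 (118 and 205), and 6 genes of the WNT lists passed 2-fold with each siRNA. Under median centring, ROR1 had 2.10 with siRNA 1, DAAM1 1.45 and 0.73, FZD2 0.17 and 0.30, FZD6 0.092 and 0.80, and VANGL1 0.095 and -0.15. The counts up and down were then 137 and 56 with siRNA 1, 266 and 101 with siRNA 2, and 1 gene of the WNT lists with siRNA 2. Averaged over kept probes, ROR1 had 1.80 and -0.17, DAAM1 1.08 and 0.31, VANGL1 -0.079 with siRNA 2, and 1 gene of the WNT lists passed 2-fold with siRNA 1, where PRKCA came to 0.50. The averages of PRKCA and VANGL1 each take in a probe whose Cy3 signal was not above background on either array, and say nothing about their calls. In the authors' log2 ratios PRICKLE1 had -0.22 with siRNA 1. SUB1 no longer passed limma, leaving 0 genes, without background correction, with median signals, with processed signals, under median centring and in the authors' ratios. The cause of these moves was not tested. Dim probes limit ROR2, WNT5B and the third probes of ROR1 and VANGL1, which stood near background.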
